A study of Mus musculus with 23 samples.

Results

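Immediate early and activity-regulated genes were followed in hippocampal RNA sequencing libraries of mice that carry or lack the Ins2 gene. The set holds 40 genes, taken by symbol from a list and matched to mouse Ensembl identifiers, among the 45706 genes of the count table. Of these, Cyr61 is listed under its current symbol Ccn1. All 40 members passed the filter on low counts, which left 15828 genes for testing. The libraries came from female mice of the genotypes Ins2+/+ (wild type, WT, n = 12) and Ins2-/- (knockout, KO, n = 11), and Ins2 encodes an insulin of the mouse. The labels name no age, strain, litter, batch, hour of dissection, behavioural task or drug, so the libraries describe the hippocampus as it was when the tissue was taken. Nothing in the labels says how the samples of a genotype were bred or housed, and p-values therefore measure only the spread between these samples.

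Immediate early genes are those that neurons transcribe within minutes of synaptic input or growth factor signalling, without needing new protein. Calcium entering through NMDA receptors and voltage-gated channels activates kinases, which switch on the factors CREB, SRF with its ELK partners, and MEF2 already bound at the promoters. The first products are mostly transcription factors (FOS, JUN, EGR, NR4A and NPAS4), which then drive a later wave of genes for synaptic, secreted and feedback proteins. In the hippocampus, Fos, Arc and Egr1 are used as marks of neurons that were recently active, and granule cells of the dentate gyrus and pyramidal cells of CA1 express much of the set. From general knowledge of these time courses, 20 members were placed here in a rapid set and 11 in a later set, and the other 9 were left unplaced.

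CREB binds the cAMP response element (CRE), whose full form is TGACGTCA and whose core is TGACG, read as CGTCA on the other strand. SRF binds the CArG box of the serum response element. RefSeq promoter windows of 300 bases around the annotated start (GRCm38.p6) were found for 30 of the 40 members. Egr1, Egr3, Arc, Ier2, Dusp4, Nptx2, Klf10, Trib1, Spry4 and Sik1 had no entry. On both strands together, a full CRE was found for 5 members (Dusp1, Btg2, Maff, Plk2 and Arl4d), against 1.79% of all 32851 windows. A CArG box was found for Egr2 and Dusp5, against 1.63% of windows. The CRE core outside a full CRE was found for 20 members, against 19.5% of windows, and some members have more than 1 window, which raises their chance of a match. By set, the core stood in 13 of 16 rapid members, 6 of 9 later members and 1 of 5 unplaced members with a window. These matches are descriptions of the letters in these windows, and a window without a match says nothing of the factor.

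The 6 windows shown are those of rapid members with a full CRE or a CArG box, plus Fos, the reference gene of the set, and Nr4a1, whose window held 4 CRE cores. The last pair was chosen after the matches were seen. Capitals mark the full CRE in Dusp1, Btg2 and Maff, the CArG box in Egr2, and the CRE cores in Fos and Nr4a1. The full CRE lies 143 to 136 bases before the start in Dusp1, 166 to 159 bases in Btg2 and 29 to 22 bases in Maff, and the CArG box of Egr2 lies 72 to 63 bases before it.
Fos, chr12:85473640-85473939, plus strand: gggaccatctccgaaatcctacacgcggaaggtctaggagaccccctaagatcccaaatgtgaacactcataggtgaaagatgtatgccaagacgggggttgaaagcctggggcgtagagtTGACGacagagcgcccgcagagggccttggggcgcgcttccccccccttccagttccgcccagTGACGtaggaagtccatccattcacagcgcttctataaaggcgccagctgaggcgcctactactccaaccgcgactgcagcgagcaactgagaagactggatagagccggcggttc
Dusp1, chr17:26508423-26508722, minus strand: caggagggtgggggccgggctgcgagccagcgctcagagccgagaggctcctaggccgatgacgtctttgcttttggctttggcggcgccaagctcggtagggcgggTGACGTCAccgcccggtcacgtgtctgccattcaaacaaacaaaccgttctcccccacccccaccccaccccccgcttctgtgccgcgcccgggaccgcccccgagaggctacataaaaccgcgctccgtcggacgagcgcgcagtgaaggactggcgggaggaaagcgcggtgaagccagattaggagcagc
Btg2, chr1:134079106-134079405, minus strand: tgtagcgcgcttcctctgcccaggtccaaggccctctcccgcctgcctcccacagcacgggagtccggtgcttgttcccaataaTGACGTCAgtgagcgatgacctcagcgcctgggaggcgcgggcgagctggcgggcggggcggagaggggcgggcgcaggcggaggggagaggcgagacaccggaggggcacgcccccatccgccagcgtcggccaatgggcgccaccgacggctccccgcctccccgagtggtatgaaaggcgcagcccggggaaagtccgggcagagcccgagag
Nr4a1, chr15:101266596-101266895, plus strand: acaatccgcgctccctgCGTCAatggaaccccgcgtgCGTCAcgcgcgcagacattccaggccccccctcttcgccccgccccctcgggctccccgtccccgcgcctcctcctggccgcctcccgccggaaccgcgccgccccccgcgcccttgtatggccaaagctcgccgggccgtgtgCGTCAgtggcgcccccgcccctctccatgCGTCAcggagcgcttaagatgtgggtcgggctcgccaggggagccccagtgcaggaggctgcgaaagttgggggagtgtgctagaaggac
Egr2, chr10:67537316-67537615, plus strand: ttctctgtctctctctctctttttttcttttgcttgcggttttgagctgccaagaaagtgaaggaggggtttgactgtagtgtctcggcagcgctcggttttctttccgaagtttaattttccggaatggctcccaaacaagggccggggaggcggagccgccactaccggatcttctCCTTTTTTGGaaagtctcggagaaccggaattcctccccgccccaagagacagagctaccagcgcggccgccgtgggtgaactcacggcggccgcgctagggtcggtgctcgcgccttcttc
Maff, chr15:79347270-79347569, plus strand: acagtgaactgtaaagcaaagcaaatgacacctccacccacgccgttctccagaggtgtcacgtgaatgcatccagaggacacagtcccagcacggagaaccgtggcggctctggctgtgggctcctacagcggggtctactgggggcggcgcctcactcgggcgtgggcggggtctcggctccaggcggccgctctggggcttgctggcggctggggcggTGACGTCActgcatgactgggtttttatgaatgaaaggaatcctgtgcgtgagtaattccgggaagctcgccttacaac

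Libraries held 13792274 to 22520798 counts in WT and 14863640 to 22953261 in KO. Ins2 itself, the deleted gene, had 0 counts in each of the 11 KO libraries and 26 counts in all over the WT libraries, 18 of them in WT 17, with counts in 7 of 12. KO 8 stood apart from every other library in its marker genes. The 12 hypothalamic markers summed to 1550 CPM there (the counts of a gene scaled to a common library size with edgeR's TMM factors) and to 1.3 to 8.6 CPM elsewhere, and each of the 12 was above its level in the other 22 libraries. The 10 dentate gyrus markers summed to 316 CPM in KO 8 against 510 to 932 CPM elsewhere, and the 7 CA1 markers to 169 against 322 to 649 CPM. The markers of KO 8 thus go against its hippocampus label, and fold changes and correlations are given with and without it. WT 14, WT 17, KO 2, KO 6 and KO 12 carried choroid plexus RNA, with 3220 to 20500 CPM over 10 markers against 32.4 to 99.2 CPM in the other libraries. In whole tissue, fewer cells of a type and less RNA per cell cannot be told apart.

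The comparison of KO with WT asked whether loss of Ins2 went with a different level of activity-regulated transcripts in the hippocampus. No member passed the threshold of an adjusted p below 0.05 in edgeR's quasi-likelihood test, 0 of 40, where 0.0126% of all genes tested did (2 of 15828). At an unadjusted p below 0.05 there were 2 members, Dusp4 and Arl4d, both with lower values in KO, which is 2 of 40 against 5.74% of all genes. The fold change was negative for 28 of 40 members, against 49.0% of all genes, but with limma's voom and quality weights for 21 of 40, against 49.6%, with a median of -0.009. With voom 4 of 40 members had an unadjusted p below 0.05, against 17.5% of all genes, and 1 of 40 in edgeR without a filter on low counts, against 6.02%. In edgeR the median log2 fold change over the members was -0.07, against 0.003 over all genes, with extremes of -0.40 for Egr2 and 0.37 for Maff. For all 40 members the range of KO values overlapped that of WT, as it did for all but 0.0126% of genes tested.

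Without KO 8 the median and both extremes of the fold changes lay closer to 0, though Nr4a2 went from 0.06 to 0.17. Again 0 of 40 passed the threshold, where 0.0126% of all genes did. At an unadjusted p below 0.05 there were 2 members, Dusp4 and Egr3, against 4.11% of all genes. A negative fold change was found for 28 of 40, against 48.4%, and the median was -0.034, with extremes of -0.31 and 0.23. In the rapid set 15 of 20 members had a negative fold change with all libraries and 17 of 20 without KO 8, with medians of -0.081 and -0.05. In the later set the counts were 9 of 11 and 8 of 11, with medians of -0.155 and -0.051. With the 5 choroid plexus libraries left out as well, 24 of 40 members had a negative fold change, against 52.7% of all genes. By set it was 15 of 20 rapid members, with a median of -0.072, and 5 of 11 later members, with a median of 0.002. An unadjusted edgeR p below 0.05 was found for 3 of 40, against 8.05% of all genes, Egr3 and Dusp4 with lower values in KO and Nr4a2 with higher ones (log2 fold change 0.31, SE 0.114, p = 0.0127, adjusted p = 0.563). Nr4a2 and the members for which no fold change over all 23 libraries is given singly make 24. Of these 24, 17 took the other sign under at least 1 alternative way of processing, Nr4a2 among them.

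**Figure D1:**
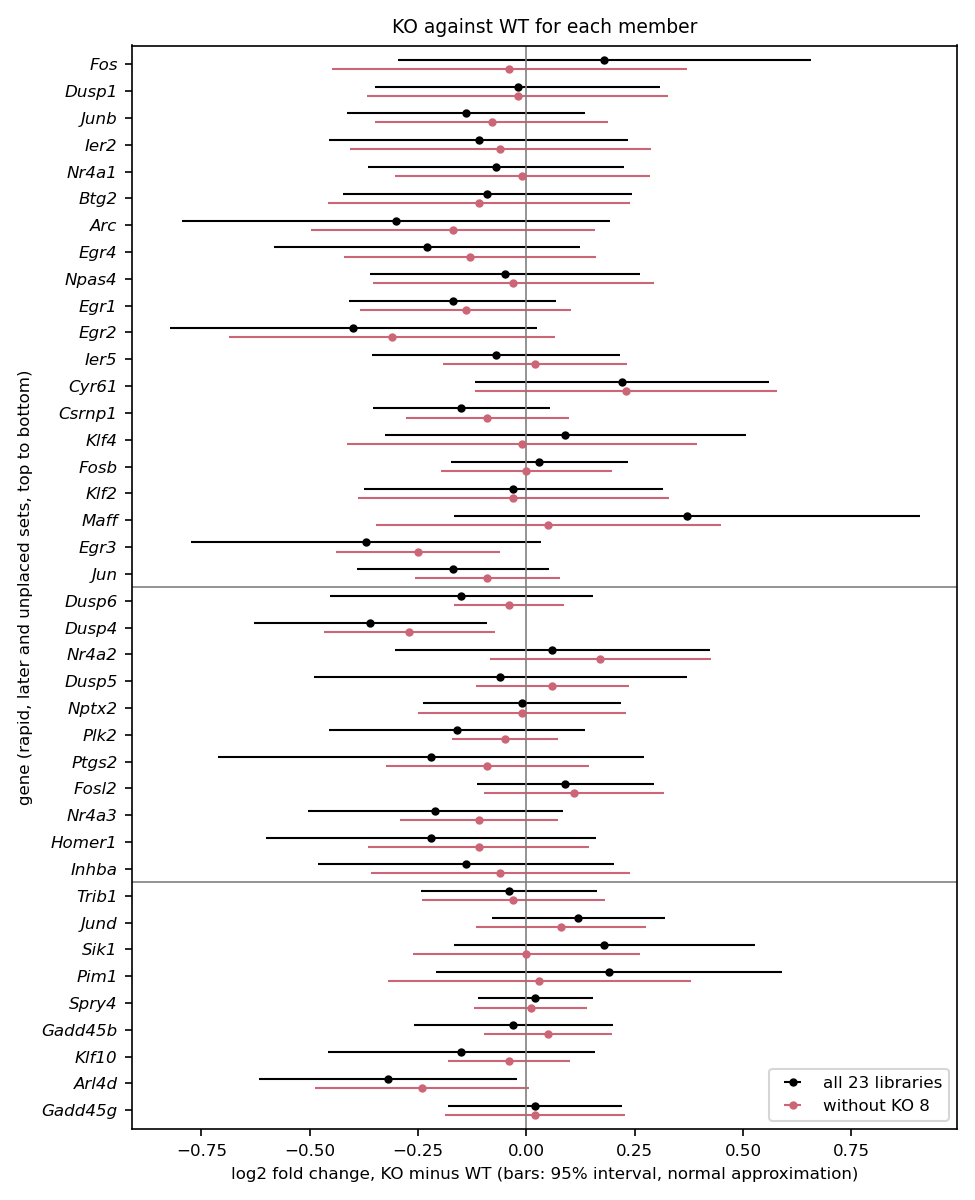
Log2 fold change of KO minus WT (x axis) for each of the 40 members (y axis, by set), with all 23 libraries in black and without KO 8 in red, bars being 95% intervals. The intervals of Dusp4 and Arl4d (all libraries) and of Egr3 and Dusp4 (without KO 8) lie below 0, the other intervals cross it, and the estimates of Fos, Maff, Arc and Egr3 move toward 0 when KO 8 is left out.

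The AP-1 subunits pair with each other to bind AP-1 sites. Fos (chr12:85473890-85477273, plus strand, GRCm38), the textbook immediate early gene, ranged from 15.3 to 63.6 CPM in WT (median 24.8) and from 17.7 to 75.4 CPM in KO (median 23.9), with 50.0 CPM as the highest KO value apart from KO 8. KO 8, WT 15 and KO 16 stood well above the other 20 libraries, WT 5 came next at 34.2 CPM, and WT 24 was the lowest. For Fos, KO minus WT was 0.18 in log2 units, with SE 0.243 and an edgeR adjusted p of 0.865, over all libraries, and -0.04 (SE 0.209, adjusted p = 0.988) without KO 8, so its sign rested on that library. Fosb, a close relative whose truncated product builds up with repeated activity, ranged from 13.7 to 24.4 CPM in WT (median 16.9) and from 11 to 23.2 CPM in KO (median 18.7). KO 8 was the highest KO library for it, as for Fos, but WT 15 had 18.3 CPM and WT 5, at 13.7 CPM, was the lowest WT library. Fosl2, a slower FOS relative, ranged from 41.4 to 86.7 CPM in WT (median 68.5) and from 57.7 to 87.4 CPM in KO (median 74.1), with WT 5 again at the bottom.

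Jun (chr4:95049034-95052222, minus strand), the main partner of FOS, ranged from 114 to 182 CPM in WT (median 158) and from 69.0 to 181 CPM in KO (median 133). KO 8 was far below the rest, and the next lowest libraries were WT 15 and WT 17 at 114 and 115 CPM, so the library with the most Fos among WT had the least Jun. For Jun the log2 difference was -0.17 (SE 0.113, edgeR adjusted p = 0.781), and -0.09 (SE 0.0858) without KO 8. Junb (chr8:84974484-84978718, minus strand), a JUN relative induced with Fos, ranged from 44.8 to 108 CPM in WT (median 77.0) and from 46.1 to 107 CPM in KO (median 64.6). Its order followed Fos, with WT 15, KO 16 and WT 5 at the top and WT 24 at the bottom, but KO 8 was second from the bottom. Jund, the JUN relative that cells make at rest, ranged from 55.3 to 97.3 CPM in WT (median 77.0) and from 66.2 to 109 CPM in KO (median 77.5). Genes on the opposite strand overlap exons of Jun (Junos), Junb (Prdx2, 7.5% of the exon bases) and Jund (Gm11175, 52.6%), and since the use of strand in counting is not known, these levels are uncertain. The same holds for Dusp5 (22.1% of its exon bases), Pim1 (14.5%), Csrnp1 (6.4%) and, by 11 bases, Dusp1.

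The EGR family are zinc finger transcription factors. All 4 had a negative fold change with and without KO 8, against 49.0% and 48.4% of all genes, with medians of -0.302 and -0.196. None of them passed the threshold. The size depended on the fit: without KO 8 and the choroid plexus libraries the median was -0.141, and with voom the log2 fold change of Egr1 was -0.064, the log2 fold change of Egr2 -0.19 and the log2 fold change of Egr4 -0.058. Egr3 stayed near its edgeR value of -0.37 with voom, where the log2 fold change of Egr3 was -0.35. Egr1, also called Zif268 and needed for lasting potentiation, ranged from 81.5 to 193 CPM in WT (median 155) and from 99.7 to 182 CPM in KO (median 127). The lowest value was that of WT 24, and KO 8, at 110 CPM, lay inside the range of the others. Its log2 fold change was -0.17 (SE 0.122, edgeR adjusted p = 0.781), and -0.14 (SE 0.124) without KO 8. Egr2 (chr10:67535475-67542188, plus strand), whose CArG box is shown above, ranged from 3.38 to 14.1 CPM in WT (median 9.17) and from 2.28 to 11.4 CPM in KO (median 6.4). WT 17 and WT 19 were at the top, and KO 8 and WT 24 at the bottom. Its log2 fold change was -0.40 (SE 0.216, edgeR adjusted p = 0.781), and -0.31 (SE 0.192) without KO 8.

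Egr3 (chr14:70077203-70082614, plus strand) ranged from 26.2 to 46.2 CPM in WT (median 37.7) and from 3.84 to 41.1 CPM in KO (median 28.3). KO 8 held 3.84 CPM, whereas the other 10 KO libraries held 26.6 to 41.1 CPM, within the WT range but with 9 of them below the WT median. The log2 fold change was -0.37 (SE 0.206, edgeR p = 0.0813) with all libraries and -0.25 (SE 0.0969, p = 0.0163) without KO 8, with adjusted p of 0.781 and 0.967. Unlike the rest of its family, Egr3 had its lowest WT value in WT 15, the library with the most Fos. Egr4 (chr6:85511121-85513589, minus strand) ranged from 18.5 to 42.0 CPM in WT (median 30.1) and from 9.12 to 38.2 CPM in KO (median 27.3). WT 17, WT 15 and KO 16 were at the top and KO 8, the library with the most Fos, at the bottom. Egr4 had log2 fold changes of -0.23 (SE 0.18) and, without KO 8, -0.13 (SE 0.148), and of -0.02 (SE 0.157) when the choroid plexus libraries were left out too.

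The NR4A orphan nuclear receptors split between the sets. Nr4a1 (chr15:101254269-101274795, plus strand), the fastest of them, ranged from 42.7 to 96.3 CPM in WT (median 72.4) and from 46.1 to 117 CPM in KO (median 62.4). Its highest value was that of KO 16, and WT 24 and KO 8 were the lowest. Nr4a2, known also for its part in dopamine neurons, ranged from 41.4 to 71.4 CPM in WT (median 55.2) and from 15.0 to 85.9 CPM in KO (median 58.3). Nr4a3 (chr4:48045153-48086447, plus strand) ranged from 98.3 to 186 CPM in WT (median 139) and from 39.7 to 171 CPM in KO (median 121), with log2 fold changes of -0.21 (SE 0.15, edgeR adjusted p = 0.783) and, without KO 8, -0.11 (SE 0.0927). For both later members KO 8 was below every other library, and Nr4a3 had its lowest WT value in WT 15, where Nr4a1 was near its highest.

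Npas4 (chr19:4984355-4990316, minus strand), a neuron-restricted factor that calcium entry induces and that shapes inhibitory synapses, ranged from 7.48 to 21.1 CPM in WT (median 14.9) and from 8.71 to 21.3 CPM in KO (median 12.6). WT 15, WT 5, KO 16 and KO 6 were at the top and WT 24 at the bottom, and the log2 fold change was -0.05 (SE 0.159, edgeR adjusted p = 0.939), and -0.03 (SE 0.165) without KO 8. Btg2, an antiproliferative cofactor whose CRE is shown above, ranged from 16.8 to 43.9 CPM in WT (median 21.7) and from 16.1 to 35.7 CPM in KO (median 22.2). WT 15 and WT 5 were almost level at 43.9 and 42.1 CPM, well clear of the other WT libraries. Ier2, a small nuclear immediate early protein, ranged from 3.09 to 10.1 CPM in WT (median 5.61) and from 3.96 to 9.42 CPM in KO (median 5.28), with the same top libraries as Fos apart from KO 8. Ier5 ranged from 27.8 to 43.0 CPM in WT (median 38.2) and from 14.1 to 55.5 CPM in KO (median 35.0), and Csrnp1 from 7.29 to 13.3 CPM in WT (median 9.0) and from 5.52 to 10.8 CPM in KO (median 8.85). Both were lowest in KO 8.

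The Krüppel-like factors are zinc finger regulators. Klf2, which endothelial cells make under blood flow, ranged from 2.81 to 9.42 CPM in WT (median 5.11) and from 3.59 to 9.15 CPM in KO (median 5.9). Klf4 ranged from 1.87 to 6.9 CPM in WT (median 4.56) and from 2.39 to 8.22 CPM in KO (median 4.28). WT 14 was the highest WT library for both and WT 24 the lowest for both. Klf10, a TGF-beta-induced relative, ranged from 23.5 to 34.8 CPM in WT (median 30.4) and from 6.66 to 35.0 CPM in KO (median 29.5), with only KO 8 outside the WT range by more than 1 CPM. Maff, a small MAF protein, ranged from 0.683 to 1.86 CPM in WT (median 1.33) and from 0.819 to 4.86 CPM in KO (median 1.26). On the log2 scale its fold change, 0.37 (SE 0.274, edgeR adjusted p = 0.785), was the largest positive value among the members, and it was 0.05 (SE 0.203) without KO 8, the library with 4.86 CPM.

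Several members switch off the kinase signal that induces the set. Dusp1 (chr17:26505590-26562128, minus strand), a phosphatase of MAP kinases in the nucleus, ranged from 13 to 33.1 CPM in WT (median 16.3) and from 12.4 to 32.3 CPM in KO (median 17.4). WT 15, KO 16 and WT 5 held 33.1, 32.3 and 26.8 CPM, and every other library held 19.9 CPM or less, KO 8 among them at 18 CPM. Dusp4 (chr8:34807297-34819894, plus strand), another nuclear MAP kinase phosphatase, ranged from 14.4 to 30.4 CPM in WT (median 23.3) and from 7.44 to 23.1 CPM in KO (median 18.8). Its log2 fold change was -0.36 (SE 0.137, edgeR p = 0.0151) with all libraries and -0.27 (SE 0.101, p = 0.0126) without KO 8, with adjusted p of 0.781 and 0.967. The groups overlapped, although all 11 KO libraries were below the WT median, and the highest KO value, 23.1 CPM in KO 18, was lower than 6 WT values. Dusp5 and Dusp6, which act on ERK, ranged from 19.7 to 33.8 CPM and from 52.5 to 78.3 CPM in WT, with medians of 24.8 and 65.8, and from 2.34 to 30.6 CPM and from 14.7 to 75.7 CPM in KO, with medians of 27.5 and 61.3. The low end in KO was KO 8 for both, and without it KO began at 19.2 and 54.7 CPM.

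Of the other feedback members, Trib1, a pseudokinase that steers protein degradation, ranged from 8.85 to 16.9 CPM in WT (median 12) and from 9.75 to 16.1 CPM in KO (median 12.4). Sik1, a kinase that holds CRTC cofactors outside the nucleus, ranged from 12.2 to 31.6 CPM in WT (median 16.7) and from 15.1 to 46.3 CPM in KO (median 17.7), with KO 8 and WT 15 at the top. Pim1, a survival kinase, ranged from 1.3 to 2.43 CPM in WT (median 1.64) and from 0.819 to 4.2 CPM in KO (median 2.12), again with KO 8 at the top. Spry4, an inhibitor of receptor tyrosine kinase signalling, kept within 13.2 to 20.4 CPM over all 23 libraries. The growth arrest genes Gadd45b and Gadd45g ranged from 11.8 to 16.8 CPM and from 12.4 to 24.4 CPM in WT, and from 6.12 to 17.6 CPM and from 13.9 to 24 CPM in KO. Gadd45b was lowest in KO 8, and Gadd45g stood near its median there at 17.3 CPM.

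The synaptic and secreted members hold the best known effectors. Of these 8 members, 7 had a negative fold change with and without KO 8, against 49.0% and 48.4% of all genes. Without KO 8 and the choroid plexus libraries 4 of 8 did, against 52.7%. Arc (chr15:74669083-74672570, minus strand), which removes AMPA receptors from synapses, ranged from 90.4 to 280 CPM in WT (median 178) and from 17.3 to 249 CPM in KO (median 137). WT 5, KO 16, WT 17, KO 18 and WT 15 were the 5 highest, WT 24 was the lowest WT library, and KO 8 lay at 0.105 times the median of the others. The log2 fold change was -0.30 (SE 0.252, edgeR adjusted p = 0.799) with all libraries and -0.17 (SE 0.167, adjusted p = 0.967) without KO 8. For Arc it was -0.11 (SE 0.176) with voom over all libraries. In edgeR without KO 8 and the choroid plexus libraries it was -0.074 (SE 0.198). Homer1 (chr13:93299635-93405129, plus strand), a scaffold of metabotropic glutamate receptors, ranged from 95.7 to 215 CPM in WT (median 160) and from 30.6 to 181 CPM in KO (median 138). The table sums over isoforms, so the short form that activity induces and the long resting forms are counted together. Apart from KO 8, the lowest libraries were KO 6, WT 15 and WT 5 at 90.8, 95.7 and 99.4 CPM, the last pair being those with the most Fos in WT. Its log2 fold change was -0.22 (SE 0.194, edgeR adjusted p = 0.804), and -0.11 (SE 0.13) without KO 8.

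Nptx2, a secreted pentraxin that gathers AMPA receptors, ranged from 16.3 to 32.6 CPM in WT (median 24.7) and from 15.8 to 34.6 CPM in KO (median 24.5), and KO 8 was in mid-range at 24.8 CPM. Plk2, a kinase that weakens overactive synapses, ranged from 156 to 223 CPM in WT (median 191) and from 45.1 to 212 CPM in KO (median 175), and its log2 fold changes were -0.16 (SE 0.151) and, without KO 8, -0.05 (SE 0.0626). Ptgs2, the inducible cyclooxygenase, ranged from 24.2 to 50.0 CPM in WT (median 33.8) and from 1.86 to 41.8 CPM in KO (median 29.7), with log2 fold changes of -0.22 (SE 0.251) and, without KO 8, -0.09 (SE 0.119). KO 8 was far below every other library for both genes. Inhba, which encodes a subunit of activin, ranged from 2.02 to 5.55 CPM in WT (median 3.58) and from 1.38 to 4.4 CPM in KO (median 3.39).

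Cyr61, a secreted matrix protein of the CCN family, ranged from 3.89 to 9.79 CPM in WT (median 5.53) and from 4.19 to 12.6 CPM in KO (median 5.94). KO 16 and WT 15 were its highest libraries, as they were among the highest for Fos, and its log2 difference was 0.22 (SE 0.173, edgeR adjusted p = 0.793), 0.23 (SE 0.178) without KO 8, and 0.089 (SE 0.154) without KO 16. Arl4d (chr11:101665541-101667832, plus strand), a small GTPase, ranged from 11.5 to 23.8 CPM in WT (median 17.4) and from 6.24 to 20.8 CPM in KO (median 13.8). It was the other member with an unadjusted p below 0.05, its log2 fold change being -0.32 (SE 0.152, edgeR p = 0.0468, adjusted p = 0.781). Without KO 8, its lowest library, the fold change was -0.24 (SE 0.126, p = 0.0752).

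**Figure D2:**
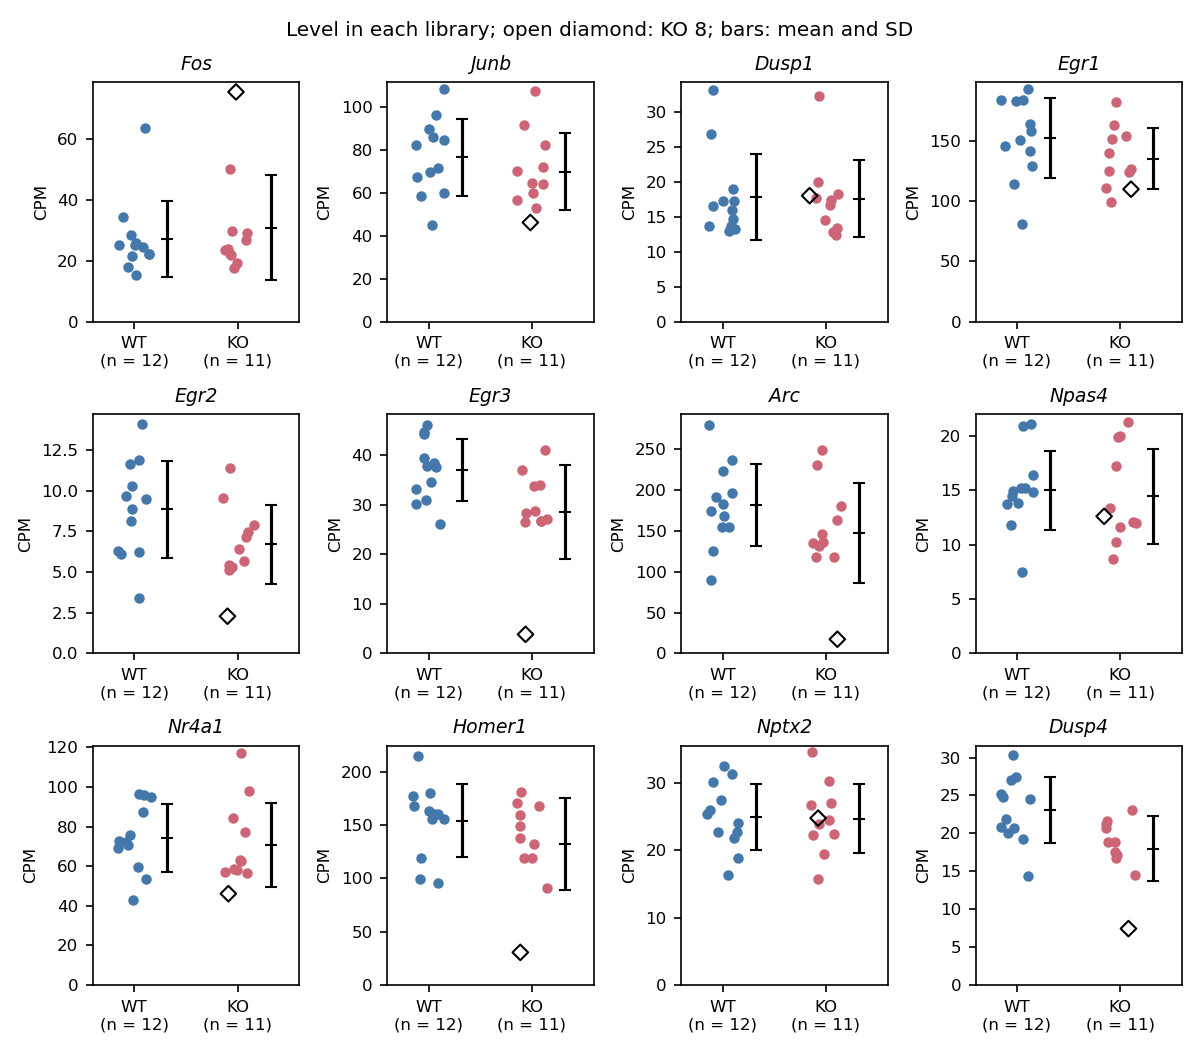
Level in CPM (y axis, from 0) of 12 members in each library of WT (blue, n = 12) and KO (red, n = 11), with KO 8 as an open diamond and the mean and SD of each group as bars. The groups overlap for each gene, and KO 8 is at the bottom for Arc, Egr3, Homer1 and Dusp4 and at the top for Fos.

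Levels can be compared between genes only per length of transcript. By median CPM per kilobase of exon over the 23 libraries, Arc was the highest member at 53.2, followed by Jund at 46.5, Jun at 44.1, Plk2 at 41.4, Egr1 at 32.6 and Junb at 30.5. Fos stood in the middle at 10.4, level with Dusp5. Inhba, Pim1 and Maff were the lowest at 0.554, 0.546 and 0.506. Neighbours such as Arc and Jund, or Jun and Plk2, differed by less than the spread between libraries, the SD of log2 CPM in WT being 0.43 for Arc, 0.25 for Jund, 0.22 for Jun and 0.14 for Plk2. The step from Plk2 down to Egr1 was about the size of the SD of Egr1, 0.35.

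Between animals, the members varied more than most genes but were not among the most variable. The SD of log2 CPM over the WT libraries had a median of 0.30 over the members, against 0.18 over all genes tested, and ran from 0.14 for Plk2 to 0.55 for Egr2 and Klf4. Of 40 members, 19 were in the top 25% of all genes and 0 in the top 5%. Over the KO libraries the median was 0.44 against 0.23, with 23 members in the top 25% and 4 in the top 5%. Without KO 8 these values were 0.32 against 0.18, 19 and 0, close to those of WT. The 4 members were Ptgs2, Dusp5, Arc and Egr3, with SDs of 1.22, 1.05, 1.02 and 0.92 in KO and of 0.28, 0.25, 0.38 and 0.23 once KO 8 was left out. Fos, Egr2 and Klf4 varied most in WT, with 4.15-fold, 4.17-fold and 3.69-fold between the highest and lowest library. Plk2 and Spry4 varied least by SD, 0.14 and 0.15, with 1.42-fold and 1.37-fold.

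Single libraries held much of this spread. Over the 22 libraries without KO 8, WT 24 had the lowest value for 15 of 40 members, 12 of them in the rapid set, Fos, Junb, Egr1, Egr2, Arc, Npas4 and Nr4a1 among them. WT 24 also had the lowest library total, 13792274 counts, and the lowest sum of endothelial markers, 95.1 CPM. WT 15 had the highest value for 5 rapid members, KO 16 for 3, WT 5 for 2 rapid and 3 later members, and WT 20 for 3 rapid and 3 later members. KO 6, a choroid plexus library, had the lowest value for 5 of the 11 later members. In units of the SD over these 22 libraries, the mean over the rapid set was 0.98 in both WT 15 and KO 16, 0.66 in WT 5 and -1.52 in WT 24. Over the later set WT 15 stood at -1.27 and KO 6 at -1.51, with WT 20 as the highest library. High rapid values thus came with low later values in WT 15, with later values near average in KO 16, and low rapid with low later values in WT 24.

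**Figure D3:**
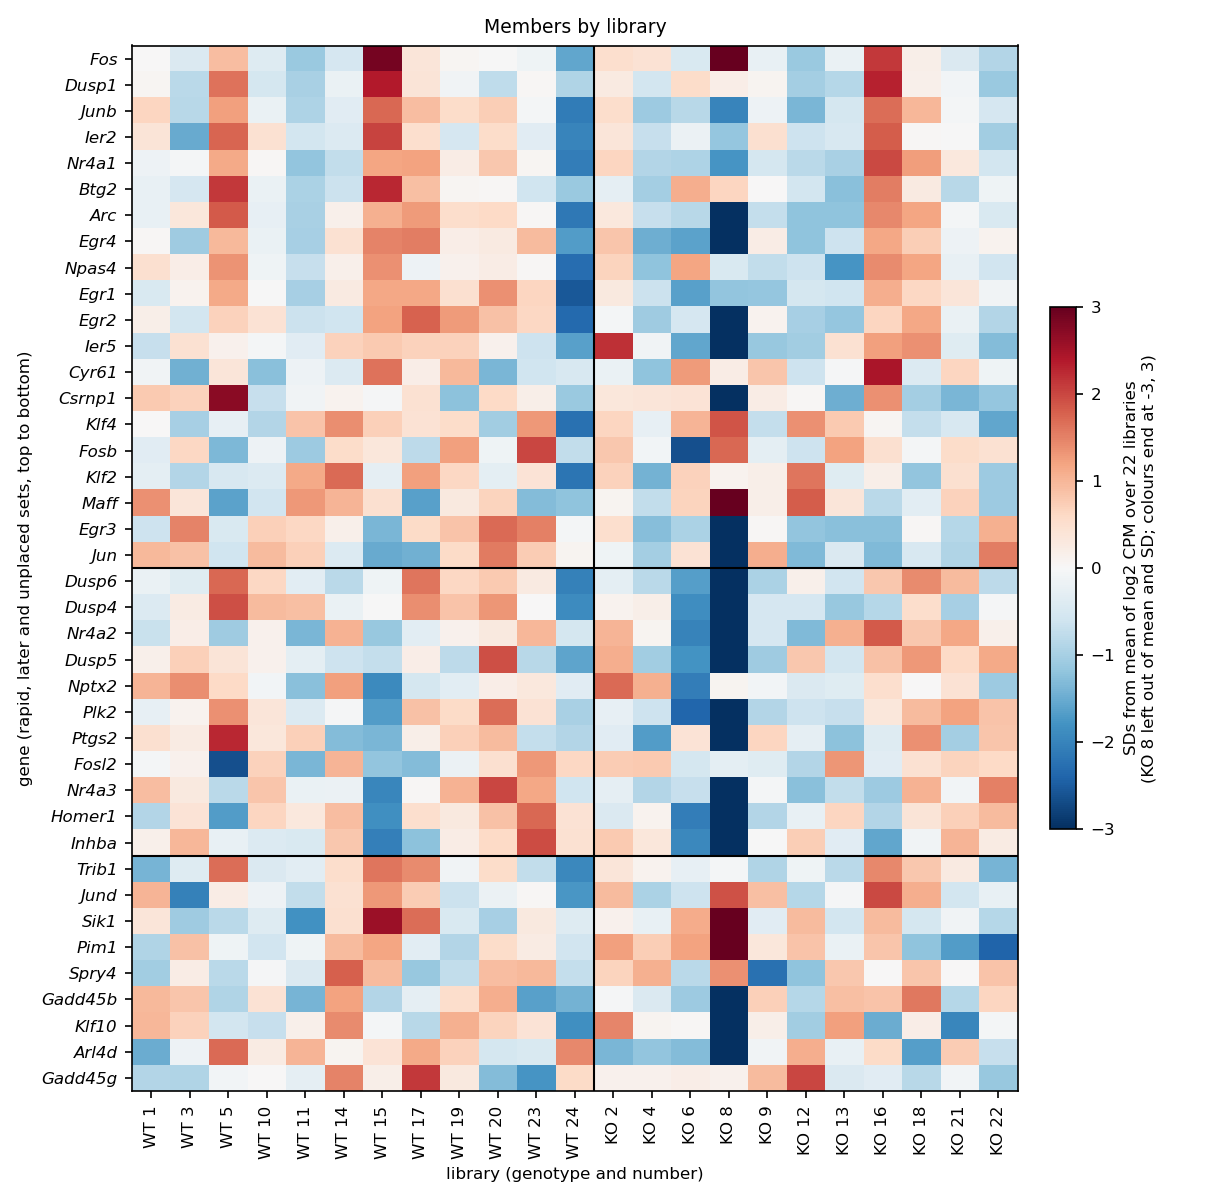
Each member (y axis, rapid, later and unplaced sets) in each library (x axis), as SDs of log2 CPM from the mean over 22 libraries, with KO 8 left out of mean and SD and colours ending at -3 and 3. WT 5, WT 15 and KO 16 are red over the upper rapid genes, WT 24 is blue, and KO 8 is dark blue over most later genes.

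KO 8 combined high Fos with low levels of most synaptic members. It was above all other libraries for 5 members: Fos (75.4 CPM against at most 63.6), Maff, Klf4, Pim1 and Sik1 (46.3 against at most 31.6). It was below all others for 19, and inside their range for 16, Npas4, Dusp1, Nptx2 and Junb among them. Over all genes tested it was above the others for 22.1% and below for 23.6%. As a multiple of the median of the other libraries, the lowest members were Ptgs2 at 0.0561, Dusp5 at 0.0911, Arc at 0.105, Egr3 at 0.113 and Homer1 at 0.194. Of the 11 later members, 9 were below all other libraries, Fosl2 and Nptx2 being the exceptions. The dentate gyrus and CA1 marker sums of this library, given above, were below all others as well, and their part in these values was not tested.

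Co-variation between animals was described by the correlation of log2 CPM across libraries, with Fos as the reference. Without KO 8, the genes whose levels followed Fos most closely, of all 15827 other genes tested, were Dusp1, Ier2 and Junb, the top 3 by Pearson's r, and Nr4a1 and Btg2 were at ranks 6 and 9. Dusp1 had r = 0.88 (permutation p = 2e-05, adjusted over all genes 0.0452), with Spearman's rho = 0.74 (permutation p = 7e-05, adjusted 0.151). Ier2 had r = 0.83 and rho = 0.68 (permutation p = 1e-05 and 0.00068, adjusted 0.0396 and 0.16). Junb had r = 0.83 and rho = 0.79 (permutation p = 1e-05 and 5e-05, adjusted 0.0396 and 0.151). Nr4a1 had r = 0.77 and rho = 0.75 (permutation p = 1e-05 and 0.00016, adjusted 0.0396 and 0.151), where 1e-05 is the smallest p that 100000 permutations can give. Trib1 and Arc, with r of 0.73 and 0.72 were the other members past the threshold, each at an adjusted permutation p of 0.0491. Their rho was 0.64 and 0.74 (adjusted permutation p 0.174 and 0.151). Btg2 missed it, with r = 0.76 (adjusted permutation p = 0.0515) and rho = 0.57. In all, 6 of 39 members were called, each with a positive r, against 0.202% of all genes (32 of 15827). By rho over the same 22 libraries 0 members and 0 genes were called, with 15 of 39 members at an unadjusted permutation p below 0.05, against 14% of all genes.

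Egr4, Egr1, Egr2 and Npas4 leaned the same way without passing. Over the 22 libraries r was 0.67 for Egr4, 0.65 for Npas4, 0.64 for Egr1 and 0.62 for Egr2, with rho of 0.70, 0.59, 0.65 and 0.67 and adjusted permutation p of 0.0605 to 0.103 for r. Several members ran against Fos: r was -0.52 for Inhba, -0.51 for Homer1, -0.49 for Jun, -0.37 for Nr4a3 and -0.35 for Egr3, with rho of -0.33, -0.40, -0.40, -0.16 and -0.23, none of them past the threshold. Fosb, the nearest relative of Fos, had r = 0.17 (rho 0.19, permutation p = 0.433 and 0.399). The median r over the 39 members was 0.21, and 18 of them had an unadjusted permutation p below 0.05, against 18.3% of all genes.

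With KO 8 included, the relation took another shape. Of 39 members, 11 passed the threshold, 6 positive and 5 negative, but so did 13.9% of all genes (2200 of 15827). An unadjusted permutation p below 0.05 was found for 18, against 32.2%, and the median r over the members was -0.01. The positive 6 were Dusp1 (r = 0.74), Btg2 (0.68), Trib1 (0.58), Jund, Sik1 and Pim1. The negative 5 were Homer1 (-0.72), Jun (-0.70), Inhba (-0.69), Nr4a3 (-0.66) and Egr3 (-0.65). Junb, Nr4a1 and Ier2 had r of 0.39, 0.38 and 0.51 and were not called, and Arc went from 0.72 to -0.21. KO 8, with the most Fos and the least Arc, was enough to turn that sign. By rank over all 23 libraries, which gives KO 8 less weight, rho was 0.52 for Arc, 0.59 for Junb and 0.74 for Dusp1, but no member was called by rho, with 15 of 39 at an unadjusted permutation p below 0.05 against 14.7% of all genes.

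The relation was computed again without the libraries with the most Fos. WT 15 and KO 8 were farthest from the median of Fos, and without that pair r was 0.83 for Dusp1, 0.82 for Junb, 0.81 for Nr4a1, 0.79 for Ier2, 0.77 for Arc and 0.65 for Btg2. Leaving out the 3 libraries with the most Fos (KO 8, WT 15 and KO 16) gave 0.71, 0.79, 0.76, 0.72, 0.77 and 0.54 in the same order, so that Dusp1, Ier2 and Btg2 had a smaller r than over the 22 libraries, while Junb, Nr4a1 and Arc were near their values there, 0.83, 0.77 and 0.72. For the members with a negative r, leaving out these 3 libraries gave -0.09 for Inhba, -0.26 for Homer1, -0.22 for Jun, 0.09 for Nr4a3 and -0.02 for Egr3. In the 12 WT libraries alone r was 0.92, 0.87, 0.80, 0.84, 0.74 and 0.91, and in the 11 KO libraries, KO 8 included, it was 0.59, 0.02, 0.06, 0.17, -0.55 and 0.50. No member passed the adjusted permutation threshold in any of these 4 subsets (in the KO libraries alone 128 other genes did), with 17, 17, 17 and 10 of 39 members at an unadjusted permutation p below 0.05, against 14%, 8.16%, 8.61% and 22.4% of all genes. An adjusted permutation p below 0.05 needs at least 4 genes at the smallest p that can be reached, so 0 calls in a small subset says little of the size of r.

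**Figure D4:**
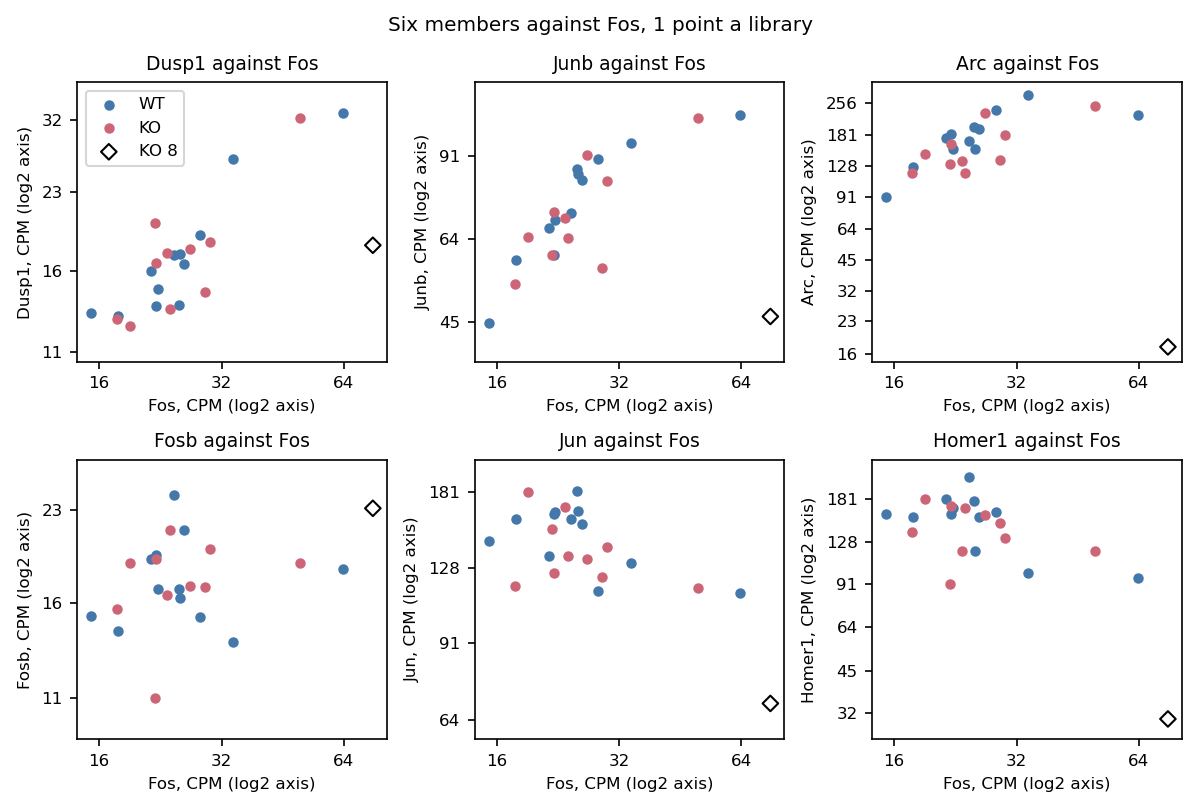
Level of 6 members (y axis) against that of Fos (x axis), in CPM on log2 axes, 1 point per library, with WT in blue, KO in red and KO 8 as an open diamond. Dusp1, Junb and Arc climb with Fos over the 22 other libraries, Fosb has no clear slope, and Jun and Homer1 are low where Fos is highest.

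Among all pairs of members, the rapid genes did not form a single group. Without KO 8 the median r was 0.27 over the 190 pairs of rapid members, 0.38 over the 55 pairs of later members and 0.06 over the 220 pairs of a rapid with a later member, against about 0 over all pairs of genes tested. The pairs share libraries and are not independent, so these medians carry no test. With all 23 libraries the later median was 0.67, as KO 8 was low for most later members at once, while the rapid median was 0.31 and the mixed median 0.09. Within WT the medians were 0.39, 0.35 and 0.03.

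Some sets of genes that stood out in this matrix were chosen after the values were seen, and their r is a description. Fos, Dusp1, Junb, Ier2, Nr4a1, Btg2, Arc, Egr4, Npas4, Egr1 and Egr2, all rapid, had r of 0.49 to 0.94 over their 55 pairs without KO 8, with a median of 0.77. The median was 0.82 within WT, 0.74 over the 10 KO libraries without KO 8, and 0.69 when WT 15 and KO 16 were left out as well. The lowest r of a pair was 0.54, 0.17 and 0.35 in the same order. Over all 23 libraries the median was 0.68 and the lowest r -0.21. Jun, Egr3 and Nr4a3 formed another set with r of 0.69 to 0.79, though Jun and Egr3 were placed as rapid and Nr4a3 as later. Fosb, Fosl2, Nr4a2, Homer1 and Inhba formed another, with r of 0.38 to 0.77 and a median of 0.59. Between the Fos set and the Jun set the median r was -0.22, and between the Fos set and the Homer1 set -0.20. When WT 15 and KO 16 were left out as well, those 2 medians were 0.07 and -0.09. They were -0.27 and -0.34 within WT, and 0.06 and about 0 in KO without KO 8, a difference that was not tested.

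Klf2 and Klf4 followed each other (r = 0.80 without KO 8, 0.86 in WT) and had r with Fos of -0.02 and 0.21 without KO 8. Of 18 relations computed between 3 members and 6 library measures over the 22 libraries, the strongest was that of Klf2 with the sum of the 10 endothelial markers, r = 0.83 and rho = 0.79 (permutation p = 1e-05 and 2e-05, adjusted 0.00018 and 0.00036). It was 0.82 without the 2 libraries farthest from the median of that sum, 0.90 in WT and 0.77 in KO without KO 8. Klf2 also followed the choroid plexus sum, with r = 0.66 (adjusted permutation p = 0.00585) and rho = 0.52 (adjusted 0.0497). The choroid plexus libraries also had the highest endothelial sums of the 22, 186 to 219 CPM against at most 173 CPM in the others. The relations of Klf2 with these sums therefore cannot be told apart here. Whether these relations follow the amount of vessel in the dissected piece was not tested.

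**Figure D5:**
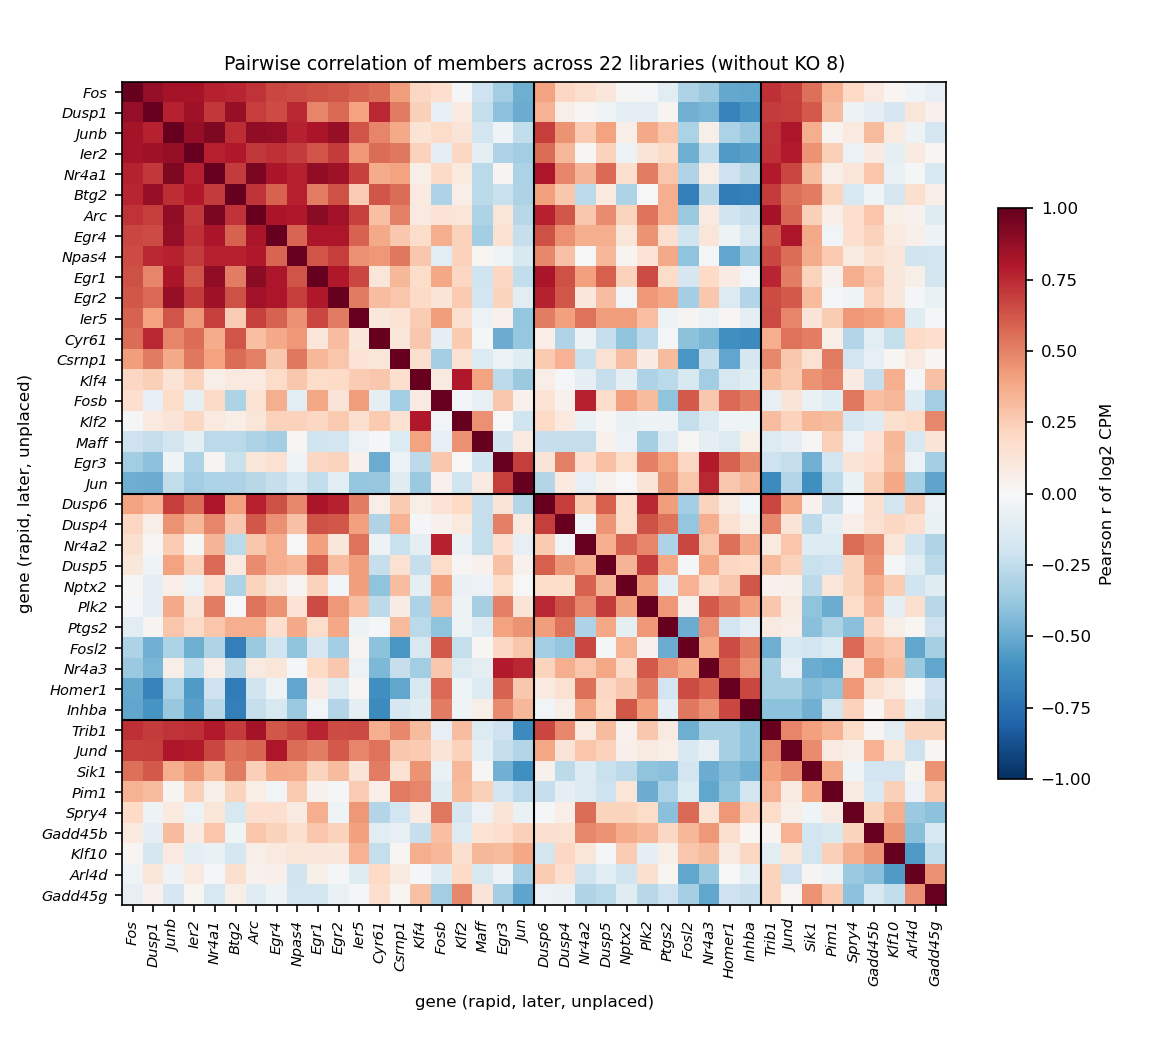
Pearson's r of log2 CPM over 22 libraries without KO 8 for every pair of members (both axes, in the order rapid, later, unplaced), from blue at -1 to red at 1. The upper left block, from Fos to Egr2, is red throughout, while Jun and Egr3 pair with Nr4a3 and are blue against Fos and Dusp1.

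Library total and length slope moved with Fos too. The mitochondrial share of counts had r = 0.19 and rho = 0.26 with Fos (adjusted permutation p 0.658 and 0.434). Over the 22 libraries Fos had r = 0.62 with the library total (permutation p = 0.00279, adjusted 0.0167; rho = 0.53, adjusted 0.0497), and 0.86 without the 2 libraries farthest from the median total. The 3 libraries with the most Fos apart from KO 8, namely WT 15, KO 16 and WT 5, held 21704331, 21247564 and 19108390 counts, while KO 13 and WT 23, with the 2 highest totals, held 23.9 and 24.4 CPM of Fos. With the length slope, the slope of log2 CPM on log2 exon length within a library, Fos had r = -0.56 and rho = -0.55 (permutation p = 0.00708 and 0.00872, adjusted 0.0276 and 0.0497), and Homer1 had r = 0.55 and rho = 0.54 (adjusted permutation p 0.0276 and 0.0497), with r of 0.81 in WT and 0.22 in KO without KO 8. With the dentate gyrus marker sum Fos had r = -0.51 (adjusted permutation p = 0.0417), rho = -0.41 (adjusted 0.17) and r = -0.32 without the 2 libraries farthest from the median sum. KO 16 and WT 15 had the lowest dentate sums of the 22 libraries, 510 and 582 CPM.

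When library total and length slope were taken out together by regression, r with Fos over the 22 libraries was 0.79 for Dusp1, 0.78 for Junb, 0.76 for Btg2, 0.73 for Arc, 0.72 for Nr4a1 and 0.71 for Ier2, where it had been 0.88, 0.83, 0.76, 0.72, 0.77 and 0.83. It was 0.0044 for Jun, 0.28 for Egr3 and 0.15 for Nr4a3, where it had been -0.49, -0.35 and -0.37. Homer1 and Inhba had values of -0.37 and -0.43. It was 0.66 for Egr2, 0.65 for Npas4, 0.63 for Egr4, 0.62 for Egr1 and 0.42 for Dusp4, where it had been 0.62, 0.65, 0.67, 0.64 and 0.21. Among the values that fell were 0.60 for Trib1, 0.50 for Jund, 0.44 for Ier5, 0.37 for Sik1 and 0.36 for Cyr61, where they had been 0.73, 0.68, 0.59, 0.55 and 0.56.

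Outside the set, the 8 genes with the highest r with Fos over the 22 libraries, at a mean of at least 1 CPM, were Rassf1, Klhdc8a, Insig1, Arhgef15, Lypd6b, Sap30l, Zfp428 and Gas2. Their r ran from 0.78 for Rassf1 to 0.74 for Gas2, below those of Dusp1, Ier2 and Junb. Rassf1 held 10.1 to 14.3 CPM and Insig1, which retains the sterol sensor SCAP in the endoplasmic reticulum, 54.6 to 87.4 CPM over these libraries. The likeness is one of level across these libraries only.

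The kinases, calcium channels and factors that induce the set were listed as 23 genes, each tested singly in the same fits. None passed the adjusted threshold, where 0.0126% of all genes did. Only 1 had an unadjusted p below 0.05 (Mef2d, log2 fold change -0.15, SE 0.0734, edgeR p = 0.0478, adjusted 0.781), near the 5.74% of all genes. The fold change was negative for 21 of 23, against 49.0% of all genes, with a median of -0.131 against 0.003 for all genes. Without KO 8 none had an unadjusted edgeR p below 0.05 (4.11% of all genes), 18 were negative (48.4%) and the median was -0.075. With the choroid plexus libraries left out as well, 2 had an unadjusted edgeR p below 0.05 (8.05%), both lower in KO. In that fit 19 were negative (52.7%) and the median was -0.083. Creb1, the factor that binds the CRE, averaged 63.8 ± 4.65 CPM over the 12 WT libraries and 59.7 ± 4.98 CPM over the 11 KO libraries (mean ± SD), and Srf, the CArG box factor, 62.0 ± 5.42 and 56.3 ± 9.42 CPM. Their log2 differences were -0.10 and -0.14, and -0.08 and -0.07 without KO 8. A further list of 20 activity-regulated genes outside the set had 0 calls and 2 genes with an unadjusted edgeR p below 0.05, against 5.74% of all genes. It had 2 without KO 8, against 4.11%, and 5 (2 lower, 3 higher) without KO 8 and the choroid plexus libraries, against 8.05%. Pcdh8, the activity-induced protocadherin arcadlin, averaged 90.5 ± 8.38 CPM over WT and 72.5 ± 16.3 CPM over KO, a difference of -0.32 on the log2 scale (SE 0.102, edgeR p = 0.00459, adjusted 0.781), and of -0.25 (SE 0.0794, p = 0.00394, adjusted 0.967) without KO 8. For Fosl1, another FOS relative, the fold change was -0.24 (SE 0.0997, edgeR p = 0.0257, adjusted 0.781), and -0.20 (p = 0.0531) without KO 8. Without KO 8, Rheb, an activator of mTORC1, had 0.10 (SE 0.0492, edgeR p = 0.0499, adjusted 0.967). Bdnf, a neurotrophin that neuronal activity induces, held 61.3 ± 7.27 CPM in WT and 53.7 ± 13.2 CPM in KO, with a log2 difference of -0.19, and of -0.09 without KO 8.

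Regional markers were compared between the genotypes in the same fits. Of the 10 dentate gyrus markers, 9 had a negative fold change in KO, with a median of -0.307, and of -0.189 without KO 8, where 9 were again negative, against 49.0% and 48.4% of all genes. An unadjusted edgeR p below 0.05 was found for 2 and 4 of them, against 5.74% and 4.11%, and 0 were called. Their summed level ran from 582 to 932 CPM in WT (median 778) and from 510 to 916 CPM in KO without KO 8 (median 667). The 7 CA1 markers leaned the other way without KO 8, with 1 of 7 negative and a median of 0.088, against 4 of 7 and -0.033 with all libraries. The 6 neocortical markers summed to 92.8 to 143 CPM in WT (median 117) and to 92.0 to 212 CPM in KO without KO 8 (median 146). Of these 6, 4 had an unadjusted edgeR p below 0.05, each higher in KO, and 3 without KO 8, with list medians of 0.277 and 0.187, and 0 were called. The fold change was negative for 1 of the 6, and for 2 without KO 8. The shares of all genes at that p are 5.74% and 4.11%. Without KO 8 and the choroid plexus libraries the list medians were -0.321 (dentate gyrus), 0.234 (CA1) and 0.241 (neocortex). In that fit 9, 1 and 2 markers were negative in the same order, against 52.7% of all genes. An unadjusted edgeR p below 0.05 was found for 4 of 10 (all lower in KO), 2 of 7 and 3 of 6 (all higher), against 8.05%. Again 0 were called. The part of these marker differences in the negative fold changes of the EGR genes, Arc and Dusp4 was not tested.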

How the data were processed

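RNA of 23 hippocampus samples of female mice was sequenced from stranded libraries, per the labels' protocols. Estimated counts for each Ensembl gene come from the table the authors deposited; 24.6 to 27.2% of values per library are fractional. The submitters' processing notes name bcl2fastq, STAR and mm10; the counting program, its use of strand and the annotation release are not given in the sources used here. Estimated counts were rounded. Genes were matched to symbols and GRCm38 positions through GENCODE M21.

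KO and WT were compared with edgeR's quasi-likelihood test (edgeR 4.0.16, R 4.3.3; TMM, filterByExpr, robust), with Benjamini-Hochberg adjustment over 15828 genes; the filter kept 99.84% of counts. Levels are CPM; correlations and SDs used log2 CPM (prior count 2). Permutation p-values of correlations with Fos were two-sided, used 100000 permutations (Python 3.11.15, numpy 2.4.6, scipy 1.17.1) and were adjusted over all 15827 other genes, not over the members alone as planned. Alternatives used DESeq2 1.42.0, limma 3.58.1 (voom) and sva 3.50.0. The steps were tested on simulated data.

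The members and lists were chosen with earlier results of these data known, and the rapid, later and unplaced sets were assigned from general knowledge. Rapid and later members are named with values, unplaced ones by p, spread or range, and outside the set the 8 genes most like Fos and listed genes with an unadjusted p below 0.05; Creb1, Srf and Bdnf were named after their values were seen. The closest pair of libraries differed by 7.33 in chi-square per degree of freedom, so every library was counted as a sample of its own.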

Additional observations from a re-analysis of the deposited data

How the results depend on the processing

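No member was called in any of the 23 fits that each left out 1 library, nor under the other alternatives of the KO comparison. With each library left out in turn, 1 to 3 members had an unadjusted p below 0.05 (4.11% to 11.3% of all genes), 23 to 29 had a negative fold change (46.5% to 53.4% of all genes), their median ran from -0.128 to -0.034, and 2 to 3 genes were called over all. Fos ran from -0.038 (without KO 8) to 0.37 (without WT 15), Cyr61 from 0.089 (without KO 16) to 0.31 (without WT 15), and Npas4 from -0.12 (without KO 16) to 0.0067 (without WT 15). Members with an unadjusted p below 0.05 numbered 1 with RLE size factors, 4 with voom (Jun, Egr3, Dusp4 and Arl4d) and 1 without a filter, against 5.74%, 17.5% and 6.02% of all genes; voom also gave 21 members with a negative fold change and a median of -0.009; genes called over all numbered 4 with DESeq2, 4 with voom and 1 at a mean of at least 50 counts. Without KO 8 and the choroid plexus libraries, the log2 fold change of Homer1 was 0.013, that of Maff -0.15, and the log2 fold change of Plk2 0.0023.

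Members correlated with Fos numbered 11 over all libraries, 6 without KO 8, and 0 in WT alone, in KO alone, without KO 8 and the choroid plexus libraries, without the 2 farthest libraries and without the 3 highest. In those subsets other than KO alone, in the order without KO 8, WT, without choroid, 2 farthest and 3 highest, r was 0.67, 0.77, 0.71, 0.64 and 0.62 for Egr4, and 0.72, 0.74, 0.72, 0.77 and 0.77 for Arc, against -0.01 and -0.21 over all libraries. With library total and length slope taken out, r was 0.63 for Egr4, 0.73 for Arc, 0.0044 for Jun, 0.28 for Egr3 and 0.15 for Nr4a3. Egr2 had -0.39 in KO alone, and Nr4a3 0.092 without the 3 highest. The later median r was 0.33 without the choroid plexus libraries and KO 8, and 0.31 without the 2 farthest or the 3 highest. The subset of the 3 highest and the regression on total and slope were chosen after seeing the data; the cause of these shifts was not tested. No paired analysis was possible because no replicate number occurs in both genotypes. Low members such as Maff and Pim1 rest on few counts per library, which limits their precision.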
